A study of Rattus norvegicus with 9 samples.

Results

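Whole-brain RNA of rats homozygous for a deletion in Lrap, a long non-coding RNA gene of the brain, was compared with that of wild-type rats. The comparison used 6 of the 9 libraries of the series, 3 per genotype, chosen by their genotype labels. The wild types were Wistar rats from a commercial breeder. The mutants carried a CRISPR/Cas9 deletion of 618 bp on a Wistar background, in both Lrap copies of the homozygotes. The 9 rats were male, had drunk no alcohol and received no treatment, and their age is not given in the labels. No label gives the wild types as littermates, or more than 1 founder for the mutant line, so line and genotype cannot be told apart. The 3 heterozygous libraries entered the fit to share the estimate of spread.

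Long non-coding RNAs are transcripts without a protein product that can act on nearby genes, on chromatin or on RNA processing. Lrap was named for its link to alcohol drinking in rats, and the series asks how its loss alters brain gene expression. A whole brain mixes neurons, astrocytes, oligodendrocytes, microglia and vessels. The data are counts of RNA fragments per locus of an assembly of the reads (build rn6). The 10 loci of highest mean count, led by a mitochondrial locus, held 35.1% to 53.5% of counts in the 6 libraries. A symbol gene here is an assembled locus that overlaps 1 named gene on its strand. There were 14678 of these among 114601 loci, and 13174 of them passed the filter on low counts, beside 39057 loci of any kind.

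The libraries held 27489383 to 46852368 expected counts (estimated counts that need not be whole), and the wild types were less alike than the homozygotes. Mitochondrial loci took 21.3%, 40.4% and 19.6% of counts in the wild types and 14.8%, 16.9% and 16.4% in the homozygotes, each in the order of rats 1 to 3 (mean difference -11.1 percentage points, exact two-sided permutation p = 0.1, the smallest that 3 against 3 allows). Loci under 400 bases took 8.67%, 6.11% and 9.62% of counts in wild type and 15.2%, 15.2% and 13.3% in homozygotes (permutation p = 0.1, exact). Without the signal recognition particle RNA gene Rn7sl1 and its copy, these shares were 3.64%, 3.66% and 3.45% against 5.30%, 4.99% and 4.93%. The added spike-in RNAs had one pattern in wild-type rat 2 and the 3 homozygotes, and another in wild-type rats 1 and 3 and the heterozygotes. The median SD of log2 values over symbol genes was 0.28 in wild type and 0.15 in homozygotes. Markers also showed uneven tissue. The Purkinje cell gene Pcp2 was at 0.384, 0.26 and 19.2 CPM (counts scaled to a common library total) in wild type and at 31.2, 0.211 and 17.1 CPM in homozygotes. Pcp2 was thus low in wild-type rats 1 and 2 and homozygous rat 2, and high in the rest. The part of cerebellar content in the results below was not tested. Without wild-type rat 2, spike-in pattern and genotype cannot be told apart in the comparison.

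The Lrap isoform that holds the deleted length was low in homozygotes. The locus lies on chromosome 12 of rn6 and has a pair of assembled isoforms, of which isoform 2 has the 618 bases inside an exon and isoform 1 lacks them. In isoform 1 they are exactly the gap between an exon that ends at 39015893 and the next, which starts at 39016512. Isoform levels are estimates, and whether wild-type reads cross this gap was not tested. Isoform 2 was at 2.54, 1.87 and 2.41 CPM in wild type and at 0.265, 0.392 and 0.406 CPM in homozygotes, with no overlap (log2 fold change -2.64, SE 0.30). It took 60.3 ± 4.84% of the gene in wild type and 16.6 ± 6.10% in homozygotes (SD, n = 3 each). This usage passed its test (edgeR diffSpliceDGE, adjusted p = 0.00743), and did so without each of the 6 libraries in turn (0.00567 to 0.0493). A copy with the deletion cannot give reads from these 618 bases, so the shift in usage is fixed by the genotype. It checks the labels and is not a finding on splicing. Isoform 1 was at 2.71, 2.66 and 3.88 CPM in wild type and at 4.59, 2.82 and 3.73 CPM in homozygotes, which overlap. Taken whole, the locus was at 5.35, 4.61 and 6.14 CPM against 4.82, 3.25 and 4.10 CPM, with overlapping ranges (log2 fold change -0.41, SE 0.22; edgeR adjusted p = 0.545).

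Across annotated genes, no single gene passed the test, and most lay slightly higher in homozygotes. With edgeR's quasi-likelihood test at an adjusted p of 0.05, 0 of 39057 loci were called (0%). At an unadjusted p under 0.05, 1907 loci were higher (4.88%) and 1659 lower (4.25%). limma-voom also called 0 loci and DESeq2 called 33 (0.0845%), of which 8 were symbol genes and 15 other annotated loci. With the spike-in pattern as a covariate edgeR called 2189 loci, 1614 higher and 575 lower, but wild-type rat 2 alone separates pattern from genotype in that fit. The groups did not overlap at 2846 higher loci (7.29%) and 2377 lower loci (6.09%). Among symbol genes the balance was uneven: at an unadjusted p under 0.05 1411 were higher (10.7%) and 65 lower (0.493%), and the groups did not overlap at 2074 higher genes (15.7%) and 245 lower genes (1.86%).

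The lean of symbol genes was small and depended on the wild-type rat and on the scaling. Their median log2 fold change was 0.16, and 10001 of 13174 (75.9%) were above 0. Loci outside annotation leaned the other way, with a median of -0.34 over 15792 intergenic and -0.34 over 3376 intronic loci, so the median of all loci was -0.07. Against wild-type rat 2, the rat with the high mitochondrial share, 78.1%, 78.7% and 85.8% of symbol genes were higher in homozygous rats 1 to 3. Against wild-type rat 1 these shares were 75.3%, 71.1% and 79.3%. Against wild-type rat 3 they were 39.6%, 38.4% and 49.4%, so the lean was absent or turned round against this rat. The wild types differed as much among themselves: 85% of symbol genes were higher in wild-type rat 3 than in wild-type rat 2.

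**Figure D1:**
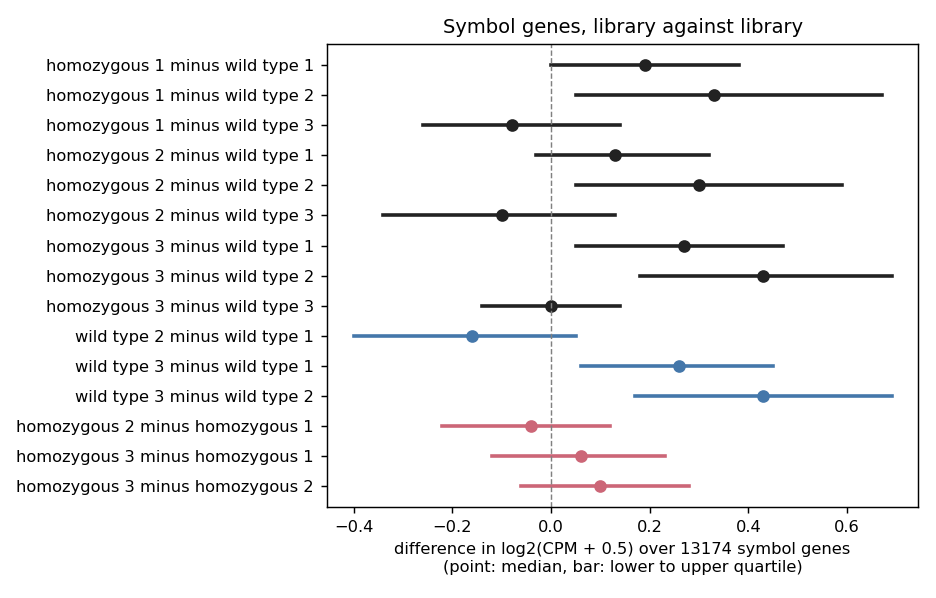
Difference in log2(CPM + 0.5) between pairs of libraries over the 13174 symbol genes tested (point, median; bar, lower to upper quartile; black, homozygous minus wild type; blue, within wild type; red, within homozygous). The medians against wild-type rats 1 and 2 lie from 0.13 to 0.43, those against wild-type rat 3 from -0.10 to 0.00, and wild-type rat 3 lies 0.43 above wild-type rat 2.

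Without wild-type rat 2 the median of symbol genes was 0.06, with 614 higher and 118 lower at an unadjusted p under 0.05. Without wild-type rat 3 it was 0.31, with 4369 higher and 145 lower. Scaling the libraries on symbol genes alone moved the median to -0.01 and that of all loci to -0.25, and left 938 symbol genes higher and 713 lower. The groups then did not overlap at 1328 higher and 1157 lower symbol genes. By the authors' TPM, counts per length brought to 1 common sum per library, the sign turned: the median was -0.54, and the groups did not overlap at 20 higher and 7460 lower genes. Loci under 400 bases held 56.8% to 72.7% of the TPM in these 6 libraries, while symbol genes over 1000 bases held 5.04% to 9.98%. A direction given below for a gene is therefore relative to the scaling on all loci unless another is named.

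Longer genes showed less of the lean. The median log2 fold change was 0.25 for 838 symbol genes of 300 to 1000 bases, 0.22 for 4766 of 1000 to 2500, 0.15 for 4948 of 2500 to 5000, and 0.06 for 2612 of 5000 bases or more. Groups did not overlap, with homozygotes higher, at 23.6%, 20.5%, 14.6% and 6.62% of genes in the same order. The medians were 0.21, 0.13, 0.04 and -0.04 without wild-type rat 2, 0.36, 0.39, 0.30 and 0.19 without wild-type rat 3, and 0.38, 0.45, 0.40 and 0.30 with the spike-in pattern as a covariate, so the longest class was lowest in each of these fits and the order of the shorter ones varied. By abundance, the median was 0.24 over 1260 genes under 1 CPM, 0.19 at 1 to 10 CPM, 0.13 at 10 to 100 CPM, 0.14 at 100 to 1000 CPM and 0.25 at the 10 genes over 1000 CPM. By chromosome it ran from 0.08 over 418 genes of the X chromosome to 0.25 over 454 genes of chromosome 12, which carries Lrap, with 0.24 on chromosome 20 and 0.23 on chromosome 19, leaving out the 4 genes of the Y chromosome.

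The 10 higher symbol genes of smallest p joined a beta-oxidation enzyme, RNAs of protein targeting and ribosome making, and synaptic and secreted proteins. Their edgeR adjusted p ran from 0.288 to 0.544 (DESeq2 0.000055 to 0.18), and the groups were separate at each of the 10, as they were at 15.7% of symbol genes in this direction. Echs1, which hydrates enoyl-CoA in mitochondrial fatty acid and valine breakdown, was at 8.95, 12.9 and 7.80 CPM in wild type and at 18.8, 31.0 and 31.9 CPM in homozygotes. Its log2 fold change was 1.46 (SE 0.25), between 1.32 and 1.70 when any 1 of the 6 libraries was left out, and heterozygotes were at 19.3 ± 3.28 CPM (SD, n = 3).

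Rn7sl1, the RNA component of the particle that guides secreted proteins to the membrane, was at 24300, 11400 and 26100 CPM in wild type and at 60300, 52000 and 49300 CPM in homozygotes (1.39, SE 0.26). A copy of it elsewhere on chromosome 6 had the same counts in each library, so reads were divided between the copies and the level of either is uncertain. Rmrp, the RNA of a ribonuclease that processes ribosomal RNA, was at 685, 414 and 774 CPM and at 3120, 1240 and 1820 CPM (1.72, SE 0.33). Both are loci of about 300 bases, and Rn7sl1 and its copy make up much of the difference in the share of short loci given above.

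Ppp1r35, a centrosomal protein gene on chromosome 12, had 0 counts in the 3 wild types and 0.752, 0.398 and 0.201 CPM in homozygotes, at least 15.6-fold higher against a floor of 3 counts over the wild-type group. Heterozygotes were at 0.322 ± 0.137 CPM (SD, n = 3). Psd, an exchange factor of the postsynaptic density, was at 63.2, 37.8 and 47.5 CPM and at 116, 89.9 and 77.4 CPM (0.93, SE 0.21). Rplp0, a protein of the ribosomal stalk, was at 85.1, 71.8 and 89.4 CPM and at 146, 125 and 131 CPM (0.70, SE 0.16). The remaining members were Clec2l (0.90, SE 0.19), Igfbp6, an insulin-like growth factor binding protein (1.49, SE 0.33), Shisa3 (1.76, SE 0.39) and Nmb, which encodes the peptide neuromedin B (1.44, SE 0.33). DESeq2 called Echs1, Rn7sl1, Ppp1r35, Rmrp, Igfbp6 and Shisa3 of these, and besides them Junb and the potassium channel gene Kcnk15. Scaled on symbol genes, the 10 genes stayed higher.

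**Figure D2:**
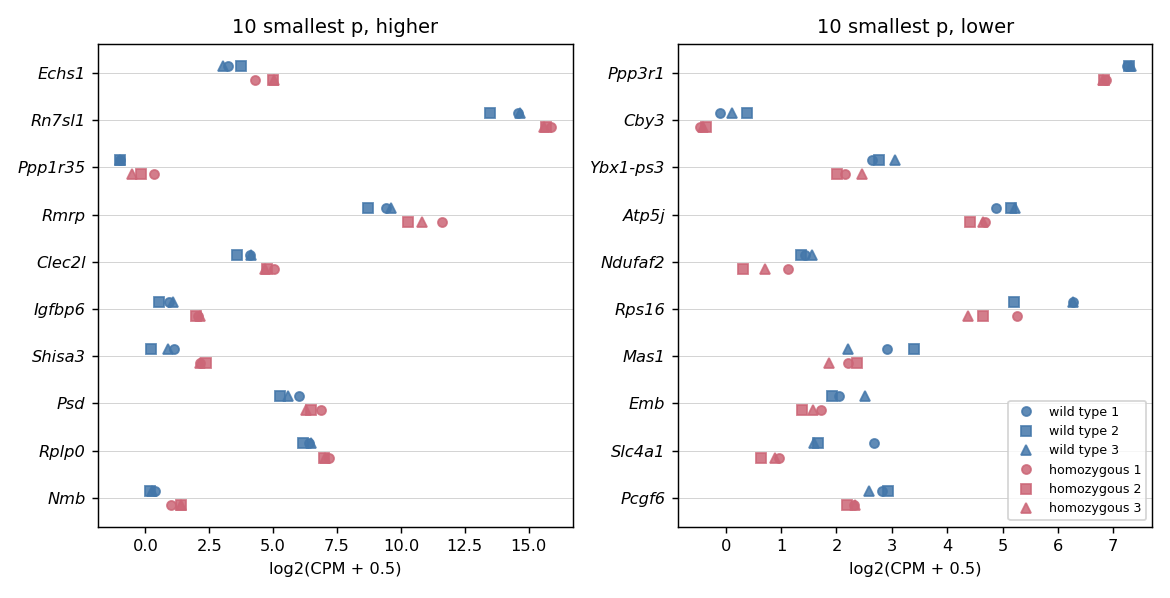
Level of the 10 higher (left) and 10 lower (right) symbol genes of smallest p, as log2(CPM + 0.5) in each library (blue, wild type; red, homozygous; circle, square and triangle, rats 1 to 3). The groups separate at the 10 higher genes and at 8 of the 10 lower ones, Rps16 and Mas1 being the exceptions.

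The 10 lower symbol genes of smallest p had an edgeR adjusted p of 0.544 each (DESeq2 0.434 to 0.629). Ppp3r1, the regulatory subunit of the calcium-dependent phosphatase calcineurin, was at 151, 156 and 159 CPM in wild type and at 117, 114 and 112 CPM in homozygotes. The spread within each group was small beside the gap (log2 fold change -0.44, SE 0.12, and -0.46 to -0.41 when any 1 library was left out), and heterozygotes were at 133 ± 8.41 CPM (SD, n = 3). Groups also did not overlap at Pcgf6, a Polycomb ring finger protein, at 6.60, 7.08 and 5.49 CPM against 4.51, 4.09 and 4.53 CPM (-0.55, SE 0.19).

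A pair of the lower genes serve mitochondrial respiration. Atp5j, a subunit of ATP synthase, was at 29.0, 34.9 and 36.7 CPM in wild type and at 25.3, 20.7 and 24.7 CPM in homozygotes (-0.51, SE 0.16). Ndufaf2, an assembly factor of complex I, was at 2.20, 2.06 and 2.46 CPM and at 1.68, 0.749 and 1.13 CPM (-0.95, SE 0.32). Rps16, a protein of the small ribosomal subunit, was at 77.0, 36.2 and 77.1 CPM and at 37.8, 24.4 and 20.3 CPM, with the ranges overlapping (-1.21, SE 0.40). Rps16 and the pseudogene Ybx1-ps3 (-0.67, SE 0.21) have near-identical copies, so their counts are uncertain. Slc4a1, the anion exchanger of red cells, was at 5.91, 2.66 and 2.51 CPM and at 1.46, 1.05 and 1.36 CPM (-1.53, SE 0.53). The others were Cby3 (-1.24, SE 0.38), Mas1, a receptor gene of the angiotensin system (-0.84, SE 0.29) and Emb, which encodes embigin, a partner of lactate transporters (-0.72, SE 0.25). Heterozygotes were close to the wild-type mean at Rps16 (62.8 against 63.4 CPM), Ybx1-ps3 (6.98 against 6.62 CPM) and Emb (3.96 against 4.04 CPM). At the remaining lower genes their mean lay between those of the groups.

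Of 14 symbol genes among those of highest mean TPM, 12 were above 0 and 2 below, none passed (edgeR adjusted p 0.38 to 0.923), and the groups did not overlap at 3, Rn7sl1, Rmrp and Apoe, beside 15.7% of all symbol genes in this direction. Apoe, the main lipid carrier that astrocytes secrete, was at 427, 298 and 544 CPM in wild type and at 874, 687 and 734 CPM in homozygotes (0.85, SE 0.21). Its mean level was 291 TPM, and it stayed higher scaled on symbol genes (0.71) and by TPM (0.10). The myelin gene Mbp (487 TPM; 0.38, SE 0.21) had overlapping groups. It was at 1830, 1030 and 1990 CPM in wild type and at 2340, 1770 and 2200 CPM in homozygotes, with wild-type rat 2 the low one.

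Housekeeping genes often used as references ran from near 0 to 0.38. Actb, the cytoplasmic actin, was at 792, 622 and 920 CPM in wild type and at 822, 835 and 807 CPM in homozygotes (0.08, SE 0.16). Calm2, a calmodulin gene, was at 1370, 1230 and 1450 CPM and at 1350, 1370 and 1440 CPM (0.04, SE 0.13). Both turned to below 0 scaled on symbol genes (-0.08 and -0.14) and without wild-type rat 2 (-0.06 and -0.02). Gapdh, the glycolytic dehydrogenase, was at 321, 282 and 464 CPM and at 438, 476 and 472 CPM (0.38, SE 0.18). Tmsb4x, which binds actin monomers, was below 0 (-0.31, SE 0.23), with 434 CPM in wild-type rat 2 against 213 to 265 CPM in the other 5 rats, and was at 0.05 without that rat. Ttr, the thyroxine carrier made by the choroid plexus, likewise went from -0.10 (SE 0.32) to 0.27. The rest of the 14, namely Cst3, Rps29, Ptgds, Ppia and Zwint, had log2 fold changes of 0.12 to 0.50 with overlapping groups, and Cst3 was at -0.08 scaled on symbol genes.

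**Figure D3:**
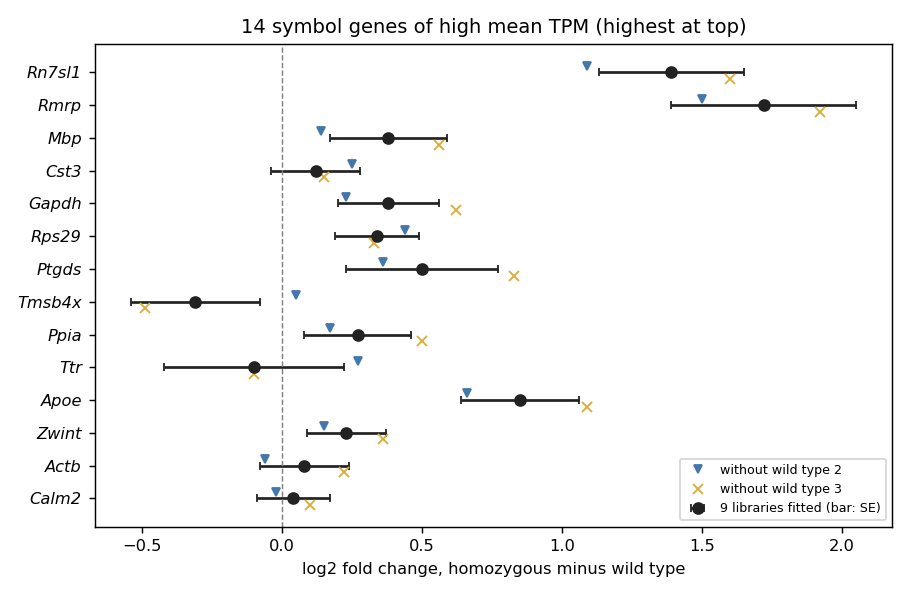
Log2 fold change of 14 symbol genes among those of highest mean TPM (black, 9 libraries fitted, bar SE; blue triangle, without wild-type rat 2; yellow cross, without wild-type rat 3). Rn7sl1, Rmrp and Apoe lie at 0.85 or more, Ttr and Tmsb4x below 0, and Mbp, Gapdh and Ptgds shift up without wild-type rat 3.

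Of 2023 symbol genes at a mean of 50 CPM or more, the groups did not overlap at 243 higher genes (12%) and at 30 lower genes (1.48%), beside 15.7% and 1.86% of all symbol genes. Beside Rmrp, Rn7sl1 and Psd, the 6 higher ones of largest fold change were Arc, Fkbp8 and Tmem132a. Arc, an immediate early gene of synapses, was at 50.8, 17.8 and 17.5 CPM in wild type and at 54.3, 132 and 65.6 CPM in homozygotes (1.55, SE 0.63). Fkbp8, an anti-apoptotic immunophilin of mitochondria, was at 62.1, 28.9 and 67.1 CPM and at 133, 92.1 and 89.2 CPM (0.99, SE 0.28). Tmem132a had a log2 fold change of 0.90 (SE 0.33).

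The 6 lower ones of largest fold change included Ppp3r1 and 4 genes whose proteins bind or process RNA. Hnrnpa1, which represses splice sites, was at 57.8, 50.7 and 96.7 CPM in wild type and at 47.1, 40.9 and 48.3 CPM in homozygotes (-0.59, SE 0.22). Sfpq, a splicing and paraspeckle protein, was at 69.8, 75.7 and 69.6 CPM and at 57.4, 55.8 and 58.5 CPM (-0.33, SE 0.13). Zc3h11a, a factor of mRNA export, was at 67.9, 60.6 and 57.4 CPM and at 47.5, 50.9 and 49.0 CPM (-0.33, SE 0.14), and Luc7l2, a factor of the U1 particle, had -0.30 (SE 0.14). Fth1, the ferritin heavy chain that stores iron, was at 225, 200 and 255 CPM and at 193, 151 and 166 CPM (-0.41, SE 0.17). These shifts were small, and their edgeR adjusted p was 0.544 each.

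Gene lists were then set beside the median of symbol genes, 0.16, and beside their shares of 15.7% higher and 1.86% lower with groups not overlapping. For list counts at an unadjusted p under 0.05, the shares over symbol genes are 10.7% higher and 0.493% lower. A list with 0 lower genes is therefore near the share of all symbol genes. Of the 35 functional lists with at least 8 tested genes, each had a median above 0, from 0.03 for glutamate receptors to 0.98 for immediate early genes. By TPM 49 of 52 list medians were below 0, and scaled on symbol genes 18 were, so what the lists show is their order rather than a direction. Gene length also differs between lists, for example 9024 bases at Grik3 and 639 at Hist1h1c. The part of length in this order was not tested.

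**Figure D4:**
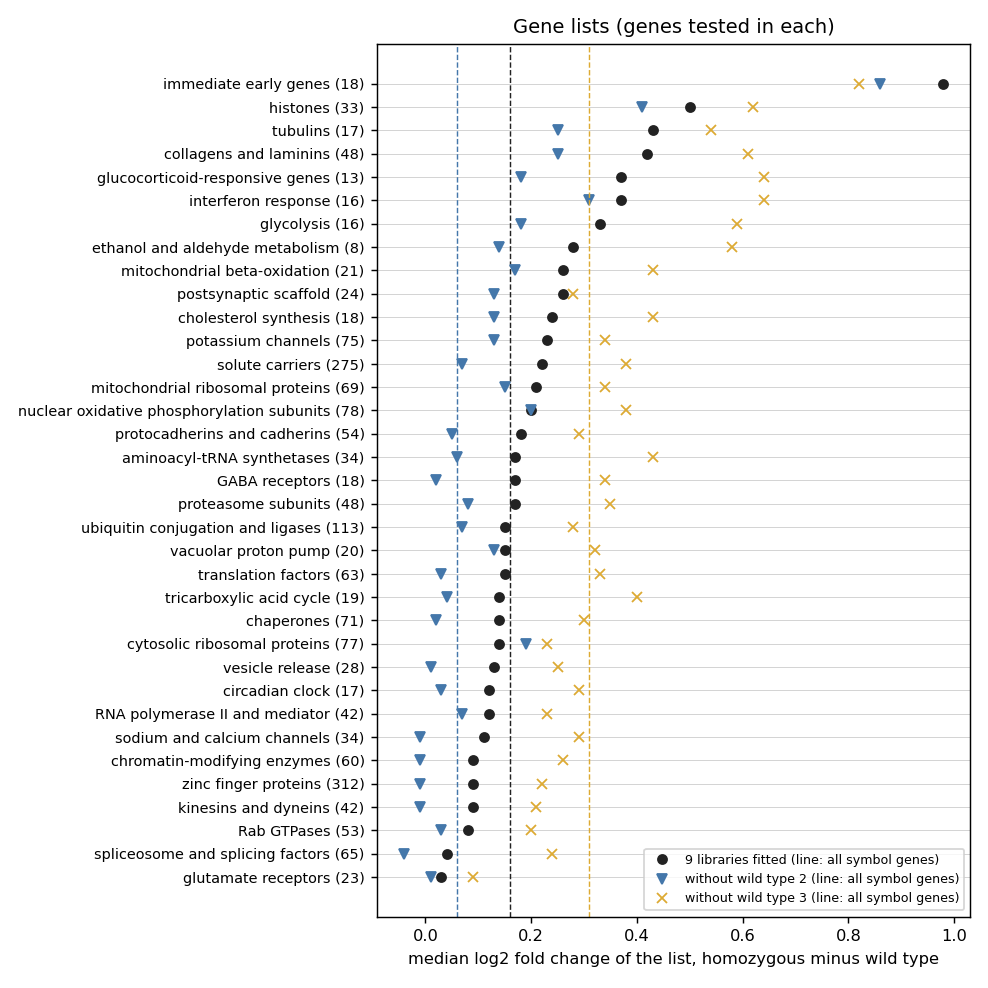
Median log2 fold change of the 35 functional lists with at least 8 tested genes (black, 9 libraries fitted; blue, without wild-type rat 2; yellow, without wild-type rat 3; dashed lines, the median of symbol genes in the same fit, at 0.16, 0.06 and 0.31). Immediate early genes, histones, tubulins, and collagens and laminins lie above the line of each fit, while splicing factors and glutamate receptors lie below it.

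Immediate early genes, which neurons switch on within minutes of activity, had the highest median. All 18 tested were above 0, 17 of them above the median of symbol genes, 9 had an unadjusted p under 0.05, and the groups did not overlap at 5. Junb, a subunit of the AP-1 transcription factor, was at 5.52, 1.59 and 2.48 CPM in wild type and at 11.1, 13.0 and 11.3 CPM in homozygotes (1.88, SE 0.52, edgeR adjusted p = 0.544, DESeq2 0.0474). Npas4, an activity-dependent transcription factor of neurons, was at 10.5, 5.70 and 3.51 CPM and at 11.9, 21.3 and 11.9 CPM (1.20, SE 0.49). Egr4 (0.92, SE 0.32) was also without overlap, whereas Fosl2 (1.03, SE 0.41) overlapped. The groups overlapped at the level of the list. The mean log2 level of the list minus the library's median over symbol genes was 0.13, -0.45 and -1.07 in wild type and -0.14, 0.74 and 0.19 in homozygotes, so homozygous rat 1 lay below wild-type rat 1.

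The cAMP response element, TGACGTCA, and its core TGACG bind CREB, a factor that switches on many of these genes. RefSeq promoters (build GRCr8, not the rn6 of the counts) were matched for 13 of the 18 genes, and the 250 bases upstream of the start were searched on both strands. A full site holds the core on each strand. The core was in 8 of 13 (61.5%), against 18.2% of 33469 promoters of the same length, and the full site in 2 of 13 (15.4%) against 1.59%. The sites belong to the list, not to this comparison, and a match is no evidence of binding. Promoters of Junb, the member DESeq2 called, of Nr4a1, the one with most cores (1.37, SE 0.59), and of Dusp1 (1.26, SE 0.54) and Btg2 (0.90, SE 0.49), which hold the full site, are given with matches in capitals.
Junb, chr19:40080876-40081125, plus strand: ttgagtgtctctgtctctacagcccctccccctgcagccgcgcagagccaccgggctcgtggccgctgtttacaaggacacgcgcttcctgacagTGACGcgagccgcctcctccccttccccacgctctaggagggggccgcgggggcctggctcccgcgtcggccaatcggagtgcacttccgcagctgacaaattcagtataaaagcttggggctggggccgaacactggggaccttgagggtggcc
Nr4a1, chr7:134259888-134260137, plus strand: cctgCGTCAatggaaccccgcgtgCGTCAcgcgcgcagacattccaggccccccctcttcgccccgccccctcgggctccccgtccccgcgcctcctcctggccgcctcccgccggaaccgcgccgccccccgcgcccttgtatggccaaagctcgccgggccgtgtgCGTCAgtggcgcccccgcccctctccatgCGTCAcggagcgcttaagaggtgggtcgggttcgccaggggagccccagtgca
Dusp1, chr10:17184603-17184852, plus strand: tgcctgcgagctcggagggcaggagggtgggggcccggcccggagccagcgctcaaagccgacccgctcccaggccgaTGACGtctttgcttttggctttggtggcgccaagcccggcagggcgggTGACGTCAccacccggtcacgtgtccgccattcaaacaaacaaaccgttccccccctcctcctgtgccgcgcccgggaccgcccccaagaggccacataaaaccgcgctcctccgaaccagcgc
Btg2, chr13:48087691-48087940, minus strand: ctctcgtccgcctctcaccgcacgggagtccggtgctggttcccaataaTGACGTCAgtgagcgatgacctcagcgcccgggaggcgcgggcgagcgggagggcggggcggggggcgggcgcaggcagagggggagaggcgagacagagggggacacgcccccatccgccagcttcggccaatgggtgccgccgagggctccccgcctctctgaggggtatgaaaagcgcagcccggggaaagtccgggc

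Histone genes came next. Of 33 tested, 31 were above 0 with a median of 0.50, 13 were higher against 0 lower at an unadjusted p under 0.05, and the groups did not overlap at 10. Hist1h1c, a linker histone, was at 11.6, 6.95 and 18.6 CPM in wild type and at 29.9, 23.5 and 26.2 CPM in homozygotes (1.10, SE 0.29). Hist1h2bo, a core histone, was at 2.02, 0.937 and 2.06 CPM and at 6.24, 2.71 and 3.62 CPM (1.31, SE 0.38). The centred level of the list was -1.74, -1.85 and -1.71 in wild type and -1.35, -1.58 and -1.51 in homozygotes, which do not overlap. Histone genes are short and have near-identical copies, so single members are uncertain.

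Genes of the extracellular matrix and of microtubules also lay above the median. Of 48 collagen and laminin genes 43 were above 0 (median 0.42), 12 were higher against 0 lower at an unadjusted p under 0.05, and the groups did not overlap at 16. Col12a1, a fibril-associated collagen, was at 15.2, 13.7 and 21.2 CPM in wild type and at 23.0, 27.1 and 29.3 CPM in homozygotes (0.66, SE 0.21). Lamc3 (0.78, SE 0.25) and Lama5 (0.81, SE 0.28), chains of basement membrane laminins, did not overlap either. Markers of the meninges, whose fibroblasts make such matrix, moved beside them: 8 of 8 were above 0 (median 0.61). The groups did not overlap at 2 of the 8 (25%, beside 15.7% of all symbol genes). The centred level of these markers was -0.25, -0.38 and -0.19 in wild type and 0.05, 0.01 and 0.21 in homozygotes. They include the collagen gene Col3a1, so the matrix and meningeal lists are not independent. The part of meningeal cells in the matrix genes was not tested. In bulk RNA, more cells of a type and more RNA per cell cannot be told apart.

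Of 17 tubulin genes 13 were above 0 (median 0.43), and the groups did not overlap at 5 higher and 1 lower. Tubb6 was at 0.946, 0.833 and 1.03 CPM in wild type and at 2.03, 2.20 and 2.14 CPM in homozygotes (1.18, SE 0.34). Tubb3, the neuronal tubulin, was at 115, 46.4 and 138 CPM and at 176, 168 and 149 CPM (0.72, SE 0.31). The motors that run on microtubules did not follow: the median over 42 kinesins and dyneins was 0.09.

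**Figure D5:**
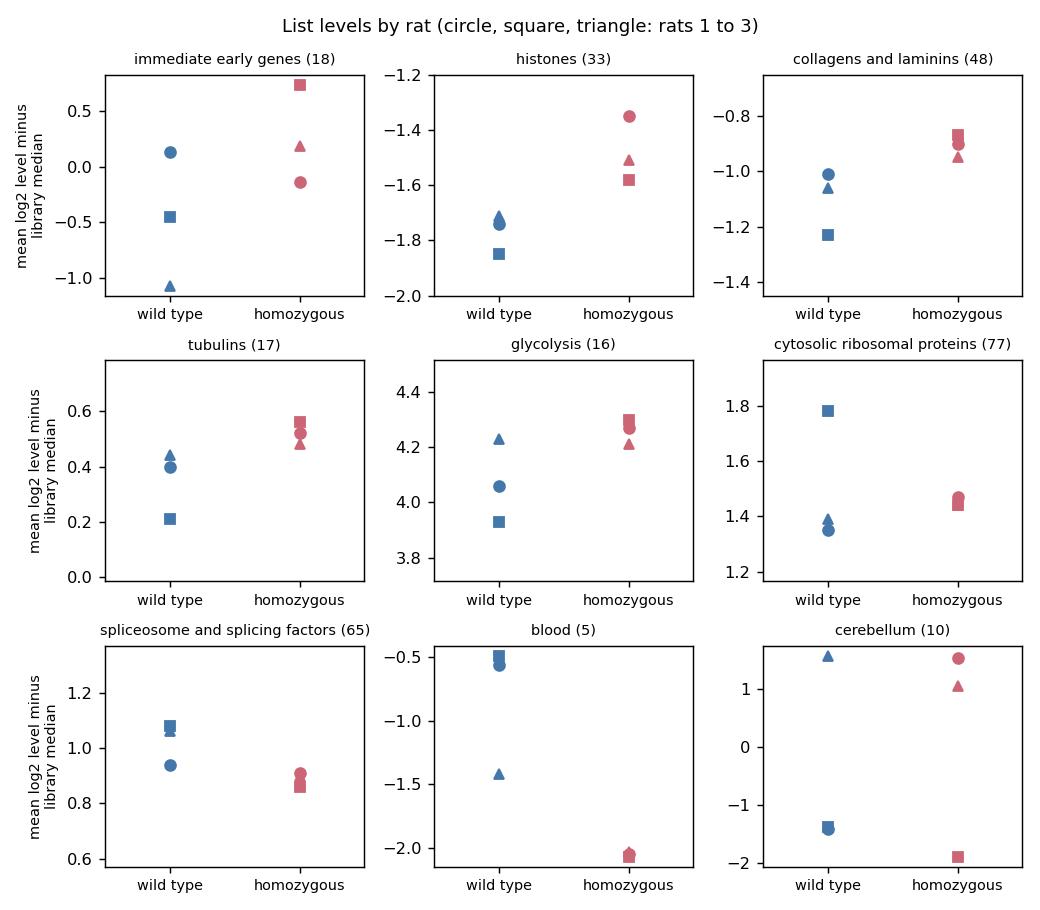
Mean log2(CPM + 0.5) of 9 lists minus the median over symbol genes of the same library (left, wild type; right, homozygous; circle, square and triangle, rats 1 to 3; genes tested in parentheses; scales differ). Histones, collagens and laminins, tubulins, splicing factors and blood separate the groups, immediate early genes, glycolysis and ribosomal proteins do not, and cerebellar genes split each group.

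Genes of energy supply lay close to the median of symbol genes or a little above it. All 16 glycolysis genes were above 0 (median 0.33), with Aldoc, the aldolase of astrocytes, at 443, 365 and 663 CPM in wild type and at 793, 664 and 732 CPM in homozygotes (0.57, SE 0.20). Eno1, an enolase, had 0.55 (SE 0.21), and the groups did not overlap at these 2 genes of the list. Of 78 nuclear subunits of oxidative phosphorylation 65 were above 0 (median 0.20), 17 were higher against 2 lower at an unadjusted p under 0.05, and the groups did not overlap at 21 and 2. Ndufa7 of complex I was at 11.2, 7.73 and 11.7 CPM and at 19.0, 15.5 and 17.4 CPM (0.77, SE 0.20), and Uqcr11 of complex III had 0.65 (SE 0.17). Beta-oxidation enzymes had a median of 0.26 over 21 genes, with Echs1 and Acads (0.95, SE 0.30) the 2 without overlap. The citric acid cycle had a median of 0.14 over 19 genes. The share of 65 of 78 nuclear subunits above 0 stands beside 75.9% of all symbol genes. The mitochondrial share of counts was lower in each homozygote than in each wild type. Nearly all of it lay in a single assembled locus, named Mt-co1 but spanning bases 68 to 6867 of the mitochondrial genome. That locus was at 21.1%, 40.2% and 19.4% of counts in wild type and at 14.7%, 16.8% and 16.3% in homozygotes. Its counts cannot be split by gene, so the share does not measure transcripts of the respiratory chain alone.

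Translation showed a wide scatter around the median. Of 77 cytosolic ribosomal proteins 51 were above 0 (median 0.14), 17 were higher against 3 lower at an unadjusted p under 0.05, and the groups did not overlap at 18 higher and 0 lower. Rplp0 lay on the higher side and Rps16 on the lower. Many have processed pseudogenes, which makes single values uncertain. Mitochondrial ribosomal proteins had a median of 0.21 over 69 genes, translation factors 0.15 over 63 and aminoacyl-tRNA synthetases 0.17 over 34. Eef2, the elongation factor that moves the ribosome along, was at 463, 306 and 573 CPM and at 770, 689 and 658 CPM (0.66, SE 0.20).

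Nuclear RNA processing lay below the median of symbol genes. Of 65 spliceosome genes and splicing factors 39 were above 0 and 26 below (median 0.04), and the groups did not overlap at 3 higher (4.62% of them) and 7 lower (10.8%). Beside Hnrnpa1, Snrpf, a core protein of the small nuclear ribonucleoproteins, was at 2.25, 2.58 and 2.91 CPM in wild type and at 1.81, 1.68 and 2.04 CPM in homozygotes (-0.48, SE 0.23). Sf3b5 (0.79, SE 0.27) and Snrpb (0.50, SE 0.21) were on the other side. The centred level of the list was 0.94, 1.08 and 1.06 in wild type and 0.91, 0.86 and 0.90 in homozygotes, a narrow gap without overlap. Such a gap was not particular to this list. Kinesins and dyneins were at 0.96, 0.93 and 0.95 against 0.87, 0.87 and 0.88. Zinc finger proteins, Rab GTPases and ubiquitin enzymes also lay lower without overlap. Beta-oxidation and glucocorticoid-responsive genes, like histones, matrix genes and tubulins, separated on the higher side. Zinc finger proteins (median 0.09 over 312 genes) and chromatin-modifying enzymes (0.09 over 60) also lay below 0.16, and polymerase II and mediator subunits (0.12 over 42) near it.

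Synaptic genes were spread on both sides of the median. Glutamate receptors had the lowest functional median, 0.03 over 23 genes with 10 below 0 and 0 of them at an unadjusted p under 0.05, and Grin1, the obligate NMDA receptor subunit, had 0.32 (SE 0.19). GABA receptors (0.17 over 18), vesicle release genes (0.13 over 28) and sodium and calcium channels (0.11 over 34) lay near 0.16. Of 24 postsynaptic scaffold genes 6 were higher at an unadjusted p under 0.05 (median 0.26), among them Dlg4, the PSD-95 gene, at 266, 191 and 252 CPM in wild type and at 333, 312 and 286 CPM in homozygotes (0.39, SE 0.15). Of 75 potassium channel genes 64 were above 0 (median 0.23), with Kcnh3 at 26.8, 16.5 and 27.1 CPM and at 49.1, 40.2 and 32.1 CPM (0.78, SE 0.22). Of 275 solute carriers 223 were above 0 (median 0.22), 52 without overlap on the higher side and 7 on the lower, led by the mitochondrial glutamate carrier Slc25a22 at 14.1, 8.85 and 14.8 CPM and at 30.9, 19.8 and 22.5 CPM (0.96, SE 0.22).

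Protein turnover and traffic stayed close to the median or under it: 0.17 over 48 proteasome genes, 0.14 over 71 chaperones, 0.15 over 113 ubiquitin enzymes, 0.15 over 20 genes of the vacuolar proton pump and 0.08 over 53 Rab GTPases. Hormone and stress programmes varied. Of 13 glucocorticoid-responsive genes 13 were above 0 (median 0.37), and the groups did not overlap at 4, including Per1, also a clock gene, at 15.5, 9.32 and 15.9 CPM in wild type and at 21.8, 30.1 and 22.3 CPM in homozygotes (0.86, SE 0.29). Mt2A, a metallothionein, was at 4.73, 5.75 and 5.14 CPM and at 7.83, 8.30 and 9.21 CPM (0.70, SE 0.22). The clock list as a whole had a median of 0.12 over 17 genes, cholesterol synthesis 0.24 over 18 and interferon-response genes 0.37 over 16 with 0 at an unadjusted p under 0.05. Of 8 genes of ethanol and aldehyde metabolism, 8 were above 0 (median 0.28), and the groups overlapped at each of the 8. Aldh2, the main acetaldehyde dehydrogenase, was at 21.4, 12.3 and 27.3 CPM and at 30.1, 24.4 and 28.4 CPM (0.44, SE 0.25).

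No marker of a cell type passed the edgeR test. Excitatory neuron markers had a median of 0.20 over 9 genes and oligodendrocyte markers 0.18 over 10, near the symbol genes. GABAergic markers were above 0 at 11 of 11 genes (median 0.60, and 0.22 without wild-type rat 2), and the groups did not overlap at 4, among them Cck, the cholecystokinin gene, at 22.9, 18.8 and 17.6 CPM in wild type and at 37.0, 36.0 and 25.9 CPM in homozygotes (0.74, SE 0.20). Their centred level was 0.05, -0.36 and 0.19 against 0.46, 0.17 and 0.39, which overlap. Microglial markers had a median of 0.45 over 10 genes and did not overlap at 6, with the complement gene C1qc at 2.99, 3.93 and 3.61 CPM and at 6.50, 5.29 and 5.46 CPM (0.71, SE 0.22). Their centred level was -0.61, -0.27 and -0.60 against -0.33, -0.32 and -0.31, which also overlap. Astrocyte (0.25 over 11), endothelial (0.25 over 9), mural (0.31 over 8) and precursor markers (0.32 over 8) lay between. The groups did not overlap at 5 of the 11 astrocyte markers (45.5%), a larger share than for GABAergic markers (36.4%). The centred level of astrocyte markers, 3.22, 3.28 and 3.37 against 3.51, 3.26 and 3.37, overlapped.

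Markers of blood and choroid plexus were on the low side. Of 5 blood genes 5 were below 0 (median -1.53), 5 had an unadjusted p under 0.05 and the groups did not overlap at 3: Slc4a1, and the neutrophil genes S100a8 and S100a9. S100a8 was at 2.43, 1.04 and 0.501 CPM in wild type and at 0.265, 0.187 and 0.151 CPM in homozygotes (-2.76, SE 0.98). Choroid plexus markers had a median of -0.34 over 8 genes with 0 past an unadjusted p of 0.05, and 0.10 without wild-type rat 2, in which Clic6 was at 30.5 CPM against 11.1 and 18.6 CPM in wild-type rats 1 and 3. Region markers varied between rats of a genotype: the cerebellar list had a median of 0.46 over 10 genes, -0.07 without wild-type rat 2 and 2.75 without wild-type rat 3, and the hippocampal list -0.07 over 5. Hypothalamic (0.64 over 10), striatal (0.29 over 9) and thalamic (0.37 over 8) markers had 0, 0 and 0 genes without overlap. Their medians were 0.21, -0.01 and 0.04 without wild-type rat 2, and 1.08, 0.48 and 0.61 without wild-type rat 3. The list of small non-coding RNAs had 4 tested genes (median 0.69), Rn7sl1 and Rmrp on the higher side, and protocadherins and cadherins had 0.18 over 54. The pineal list had 1 tested gene, Tph1, from 0.153 to 6.62 CPM over the 6 rats.

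At the level of isoforms, 0 of 63699 passed (edgeR quasi-likelihood, 0%), with 2320 higher and 2083 lower at an unadjusted p under 0.05. The smallest p among symbol genes belonged to an isoform of Kcnh7, a voltage-gated potassium channel, with 2 counts in wild type and 319 in homozygotes: it was at 0.0502, 0 and 0 CPM and at 2.87, 3.83 and 2.23 CPM (edgeR adjusted p = 0.0736). It took 9.02%, 11.1% and 8.03% of the gene in homozygotes and at most 0.16% in wild type, while the gene as a whole stayed level (log2 fold change 0.01, SE 0.14). An isoform of Mprip, a myosin phosphatase partner, went the other way at 17.7, 27.9 and 27.3 CPM against 4.72, 5.40 and 2.59 CPM (-2.52, SE 0.32), with heterozygotes at 7.95, 6.26 and 6.36 CPM. An isoform of Man2c1, a mannosidase, had 0 counts in wild type and was at 1.37, 2.70 and 1.29 CPM in homozygotes, at least 74.1-fold higher. An isoform of Celf1, a splicing regulator, was at 2.06, 3.76 and 2.67 CPM in wild type and had 0 counts in homozygotes, at least 99.4-fold lower. The isoform of Tns1, a focal adhesion protein, was uneven, at 13.1, 0.646 and 17.6 CPM in homozygotes. Heterozygotes were near wild type at the Kcnh7 isoform (0, 0 and 0 CPM), that of Man2c1 (0, 0 and 0.0265 CPM) and that of Tns1 (0, 0.125 and 0 CPM). At the Celf1 isoform they were at 4.89, 1.75 and 3.5 CPM, also near wild type. None of these isoforms took more than 38.4% of its gene in any of the 6 rats.

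The usage test called 119 of 9659 genes (1.23%), of which 17 were called in the fit with 9 libraries and without each of the 6 libraries in turn. On simulated counts the same test made 70 false calls, so its count is not reliable. The 5 symbol genes of smallest p were Egfem1, Kcnh7, Ddr1, Fam53c and Mprip (edgeR diffSpliceDGE, adjusted p 3.03e-05 to 0.000403). An isoform of Ddr1, a collagen receptor kinase, had 0 counts in wild type and took 28.3%, 7.53% and 9.13% of the gene in homozygotes. One of Fam53c had 0 counts in wild type and took 4.48%, 2.99% and 5.89%. Heterozygotes were at 1.84, 1.58 and 1.06 CPM for the Ddr1 isoform and at 0, 0 and 0 CPM for that of Fam53c. The transcript named for the Egfem1 call, 1 of 25 assembled at that locus, is classed as intergenic and not as a form of the annotated gene. It was at 12.2%, 9.58% and 0% in wild type and at 0.01%, 0.05% and 0% in homozygotes, which overlap, so that call rests on wild-type rats 1 and 2.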

How the data were processed

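Whole-brain total RNA of 9 rats was depleted of ribosomal RNA and sequenced as stranded paired reads, per the labels. Per the file headers, the files the authors deposited hold expected counts of RSEM, estimated and not always whole, for loci and isoforms, TPM values, and the percent of each gene given to each isoform. The submitters' processing notes name cutadapt, HISAT2, StringTie, RSEM and build rn6. The sources used here do not say whether counting used the strand, so reads of overlapping antisense genes are uncertain.

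Expected counts were rounded, filtered (filterByExpr), scaled with TMM factors and tested with edgeR 4.0.16 (quasi-likelihood, R 4.3.3), fitting the 9 libraries together with a Benjamini-Hochberg threshold of 0.05. The common biological coefficient of variation was 0.277. Isoform usage was tested with diffSpliceDGE. Levels are CPM on TMM-scaled totals, and log2 levels add 0.5. Spike-ins and 146 loci with several symbols were left out of symbol genes. DESeq2 1.42.0, limma 3.58.1 and other scalings and filters were alternatives. The p-values measure the spread between these rats. Floors cover counting error only. No libraries of a genotype agreed within sampling noise.

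On simulated counts of this comparison (37536 loci) the fit recovered 14% of loci changed by a fold of 2, 68% at 4 and 92% at 8, with 12 false calls. The genes named are Lrap, the 10 of smallest p in each direction, the 15 of highest TPM, the 6 of largest change in each direction without overlap at 50 CPM or more, up to 4 of smallest p per list, 5 each for isoforms and usage, and those DESeq2 called. Some picks of this rule are not reported here. Promoters of further immediate early genes were chosen for their motif matches. The comparison, lists and tests were chosen with earlier results of these data known.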

Additional observations from a re-analysis of the deposited data

How the results depend on the processing

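The count of loci called, 0, was 6 without a filter on low counts, 33 with DESeq2, 2189 with the spike-in pattern as a covariate, and 0 to 2 without 1 library. With that covariate, wild-type rat 2 alone separates pattern from genotype. Symbol genes higher at an unadjusted p under 0.05 (1411) numbered 938 scaled on symbol genes, 4375 with the spike-in pattern, and 614 (without wild-type rat 2) to 4369 (without wild-type rat 3) with 1 library left out. Those lower (65) numbered 35 with relative log expression size factors, 39 in 6 libraries only, 36 with DESeq2, 713 scaled on symbol genes, 239 with the spike-in pattern, and 31 to 145 with 1 library left out. Symbol genes without overlap (2074 higher, 245 lower) numbered 1328 and 1157 scaled on symbol genes and 20 and 7460 by TPM. With 1 library left out they ran from 2213 to 6449 higher and from 349 to 659 lower. Groups of 2 and 3 libraries fail to overlap more easily than groups of 3 and 3, so these counts are not on the same footing. The median of symbol genes, 0.16, was -0.01 scaled on symbol genes, 0.39 with the spike-in pattern, -0.54 by TPM, and 0.06 to 0.31 with 1 library left out. The scaling on symbol genes and the TPM counts were chosen after seeing the data. Isoforms called, 0, were 1 with a stricter filter and 0 to 2 with 1 library left out, and usage calls, 119, ran from 70 to 225. The difference in mitochondrial share ran from -14.8 to -4.4 percentage points with 1 library left out, the latter without wild-type rat 2.

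The main fit did not treat rats of the same number as pairs. The correlation of deviations between wild-type and homozygous rats of the same number was 0.014, 0.269 and 0.268. Between wild-type and homozygous rats of different numbers it ran from -0.364 to 0.164. Whether the numbers mark a pairing was not tested. With the replicate block 1 locus was called, and 2109 symbol genes were higher and 82 lower at an unadjusted p under 0.05.

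Of 3820 values of 239 named genes under tested alternatives, 25 had the other sign, in 10 genes. With 1 library left out, Cst3 ran from -0.03 to 0.25, Tmsb4x from -0.49 to 0.05, Ttr from -0.39 to 0.27, Actb from -0.06 to 0.22, Calm2 from -0.02 to 0.10, Kcne2 from -0.76 to 0.03, Wfs1 from -0.02 to 0.28, Neurod1 from -0.31 to 2.59, Scarna15 from -0.17 to 0.35 and Tph1 from -2.86 to 1.94. Scaled on symbol genes, Cst3 was at -0.08, Actb at -0.08, Calm2 at -0.14, Wfs1 at -0.05 and Scarna15 at -0.23. With the spike-in pattern Cst3 was at -0.13, Scarna15 at -0.51 and Tph1 at -0.56. Scarna15 was at -0.00 with the stricter filter, and Tph1 at -0.16 with limma-voom. By TPM 143 of the 239 had the other sign. The causes were not tested. With 3 rats a group, folds of 2 were mostly missed on simulated counts.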
